A study of Mus musculus with 28 samples.

Results

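The cytokines and NF-kB feedback genes are 10 genes of the mouse pituitary count table: the cytokines Il1b, Il33, Il6, Lif and Tnf, the chemokines Ccl2 and Cxcl1, and the feedback genes Socs3, Nfkbia and Zfp36. They were listed by symbol, 10 of the 32594 genes in the table. The table held RNA-seq of whole pituitary glands from 28 C57BL/6J mice, 8 weeks old by the labels and on arrival by the study's methods, 16 female and 12 male, with 1 library per mouse. Home cage controls (4 females, 4 males) were collected from their home cages, restraint mice (4 females, 2 males) were held in restrainers for 20 min and collected 10 min afterwards, PSD mice (4 females, 3 males) underwent paradoxical sleep deprivation for 12 h on small platforms over water and were collected 18 h after its end, and PSD + restraint mice (4 females, 3 males) received both. The labels give no engineered allele or drug for any mouse, and all of them had been habituated to the deprivation tanks. The glands were taken whole, so all 3 lobes and every resident and blood cell of the gland contributed RNA, and in such bulk samples fewer cells of a type and less RNA per cell cannot be told apart.

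Interleukin-1 and tumor necrosis factor bind receptors that free the NF-kB transcription factors from their inhibitors, and NF-kB then turns on chemokine and cytokine genes together with its own inhibitors. Interleukin-6 and leukemia inhibitory factor act through a shared receptor chain, JAK kinases and STAT3, and are known in the pituitary as inducers of Pomc transcription and ACTH release. Nfkbia encodes the inhibitor IkB alpha, Socs3 encodes an inhibitor of JAK signaling, and Zfp36 encodes tristetraprolin, which binds AU-rich elements of cytokine mRNAs and speeds their decay, so that each of these 3 genes closes a negative feedback loop.

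The promoters of 9 of the 10 members were found in the RefSeq table of build GRCm38.p6, each reaching from 250 bases before to 50 bases after a transcription start. They were searched on both strands for 5 motifs: the NF-kB consensus, the serum response element, the AP-1 site TGANTCA, the cAMP response element TGACGTCA and its core TGACG, which lies within the longer element. The 4 shown here are those of the member with the largest change (Il1b), the feedback genes that rose in males (Nfkbia, Zfp36) and the least read member (Il6), with capitals marking motif matches:
Il1b, chr2:129371090-129371389, minus strand: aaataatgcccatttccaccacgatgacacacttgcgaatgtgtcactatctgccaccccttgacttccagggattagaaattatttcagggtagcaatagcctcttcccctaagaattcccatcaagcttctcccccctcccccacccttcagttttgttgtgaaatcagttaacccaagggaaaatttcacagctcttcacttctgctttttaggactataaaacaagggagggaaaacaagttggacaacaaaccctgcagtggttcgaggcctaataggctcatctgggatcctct
Nfkbia, chr12:55492598-55492897, minus strand: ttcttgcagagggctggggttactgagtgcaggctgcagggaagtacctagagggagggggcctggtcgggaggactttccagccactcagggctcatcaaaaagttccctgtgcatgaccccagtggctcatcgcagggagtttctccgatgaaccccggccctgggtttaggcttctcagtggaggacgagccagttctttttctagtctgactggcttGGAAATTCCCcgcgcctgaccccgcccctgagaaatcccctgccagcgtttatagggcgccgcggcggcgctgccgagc
Zfp36, chr7:28379179-28379478, minus strand: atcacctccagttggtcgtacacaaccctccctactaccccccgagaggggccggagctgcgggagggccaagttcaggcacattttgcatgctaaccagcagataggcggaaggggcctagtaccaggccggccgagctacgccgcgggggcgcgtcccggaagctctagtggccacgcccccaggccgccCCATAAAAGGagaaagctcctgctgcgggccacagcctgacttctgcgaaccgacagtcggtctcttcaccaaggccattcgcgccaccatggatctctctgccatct
Il6, chr5:30012864-30013163, plus strand: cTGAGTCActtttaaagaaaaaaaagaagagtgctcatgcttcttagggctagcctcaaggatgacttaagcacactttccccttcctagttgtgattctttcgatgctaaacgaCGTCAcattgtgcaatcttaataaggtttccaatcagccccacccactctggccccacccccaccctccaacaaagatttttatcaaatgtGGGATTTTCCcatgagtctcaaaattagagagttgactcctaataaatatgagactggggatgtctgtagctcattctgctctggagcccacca
The NF-kB consensus lay in the windows of Nfkbia, Il6, Lif and Cxcl1, 4 of the 9 genes, against 8.46% of all 32851 promoters in the table. The first share counts genes and the second promoters, and Il33 had 2 windows, neither with a match to this consensus. The capitals in Nfkbia mark 1 such match, 29 bases before the start site, and those in Zfp36 mark a serum response element 58 bases before the start, a motif held by 1.63% of all promoters. In Il6 the capitals mark, from left to right, an AP-1 site (7.81% of all promoters), the core TGACG on the opposite strand (20.8%) and an NF-kB consensus. No member's window held the full cAMP response element, which was in 1.79% of all promoters, and the Il1b window held none of the 5 motifs. These are matches of letters and were not tested as binding sites.

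The libraries held 14024465 to 52948531 counted reads, with a median of 33389717. The hormone genes Gh, Prl and Pomc together took 24.8 to 34.3% of the reads of a library. Among marker sums, male control mouse 1 was low in neurointermediate lobe genes (159 CPM, against 605 to 774 in the other male controls), female PSD mouse 1 and female PSD + restraint mouse 4 were high in forebrain genes (81.6 and 56.5 CPM), and male PSD + restraint mouse 2 was high in neutrophil genes (126 CPM, against 21.2 and 13.6 CPM). Levels are given as CPM, the reads of a gene scaled to library size with TMM factors. A gene was called where edgeR's quasi-likelihood test gave an adjusted p (Benjamini-Hochberg over all genes tested) of at most 0.05 and the levels differed at least 1.25-fold in either direction.

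Per kilobase of annotated exon, the members fell into an upper set of 4 genes and a lower set of 6 in the home cage controls. The length was the union of all annotated exons of a gene. For Zfp36 (3470 bases) and Cxcl1 (1875 bases) this union spans the whole gene from first to last base. The places of these genes within their sets, and their overlap with neighbours, depend on that length. In control females Nfkbia stood highest at 45.3 ± 7.96 CPM per kb (SD, n = 4), followed by Socs3 at 11.3 ± 1.11, Zfp36 at 6.47 ± 1.03 and Il33 at 4.19 ± 0.668 CPM per kb. With these lengths none of these neighbours overlapped. The lower set began with Il1b at 0.374 ± 0.0492 CPM per kb, whose mice overlapped those of Ccl2 at 0.268 ± 0.0762, and went on through Lif at 0.170 ± 0.0117, Tnf at 0.115 ± 0.0571 and Cxcl1 at 0.0730 ± 0.0368 CPM per kb, each overlapping the next. Il6 came last at 0.00424 ± 0.00849 CPM per kb. The order in control males was the same down to Lif, with Zfp36 (4.20 ± 0.456 CPM per kb) and Il33 (3.87 ± 0.361 CPM per kb) overlapping. With restraint, Il1b reached 2.63 ± 0.779 CPM per kb in females and no longer overlapped Ccl2 at 0.429 ± 0.230, but it stayed below every mouse's Il33.

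The first question was which members respond to acute restraint. Il1b, which encodes the secreted pyrogenic cytokine interleukin-1 beta, rose in both sexes. The gene lies on chromosome 2, 129364570 to 129371139 of the minus strand in GRCm38. In females it was at 0.701, 0.724, 0.598 and 0.827 CPM in the 4 controls and at 3.61, 4.98, 4.41 and 7.09 CPM in the 4 restrained mice. These levels rested on 34, 16, 21 and 29 reads and on 184, 245, 136 and 209 reads. Every restrained female lay above every control. The fitted change was 7.05-fold (95% confidence interval 5.01 to 9.92; log2 fold change 2.82, standard error 0.23, adjusted p = 4.23e-05). In males the 4 controls were at 0.870, 0.612, 0.888 and 0.672 CPM and the 2 restrained mice at 2.48 and 2.89 CPM. Both restrained males again lay above all controls, with a 3.54-fold change (interval 2.32 to 5.40, adjusted p = 0.0121). With 2 restrained males this call was sensitive to single mice: the adjusted p was 0.0529 without control 2, 0.0525 without control 4, 0.0861 without restraint mouse 2 and 0.183 without restraint mouse 3, with a log2 fold change of 1.71 to 1.93 in these 4 fits. Because each library came from 1 mouse, these p-values measure the spread between mice. By the study's methods, cage mates were housed and deprived together. The labels do not give the cage or tank of a mouse, so effects of a shared cage or tank cannot be told apart.

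After sleep deprivation alone, Il1b levels overlapped those of the controls in both sexes. The 4 PSD females were at 0.416, 0.7097, 0.895 and 0.624 CPM, from 8, 13, 18 and 25 reads, and the 3 PSD males at 0.665, 0.614 and 1.21 CPM. The fitted fold against controls was 0.930 (interval 0.625 to 1.38, adjusted p = 0.863) in females and 1.09 (interval 0.724 to 1.64, adjusted p = 0.930) in males, so that increases larger than the upper bounds lay outside the intervals. When restraint followed deprivation, Il1b was at 4.99, 3.40, 3.44 and 3.63 CPM in females and at 2.59, 3.91 and 2.79 CPM in males. All of these mice lay above every control and every PSD mouse of their sex. Against controls the change was 5.39-fold (interval 3.81 to 7.63, adjusted p = 6.66e-05) in females and 4.09-fold (interval 2.79 to 6.01, adjusted p = 0.00127) in males. Against PSD alone it was 5.79-fold (adjusted p = 7.03e-05) in females and 3.76-fold (adjusted p = 0.0153) in males. The male value rested on few mice, with adjusted p = 0.0682 without PSD mouse 1, 0.0970 without PSD mouse 2 and 0.0878 without PSD + restraint mouse 2.

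Whether prior deprivation altered the restraint response of Il1b was tested directly. In females PSD + restraint stood at 0.764 of the level after restraint alone (interval 0.561 to 1.04, adjusted p = 0.419), and in males at 1.156 of it (interval 0.757 to 1.77, adjusted p = 0.833). The interaction of PSD with restraint had a log2 value of -0.28 (interval -1.01 to 0.44, adjusted p = 0.963) in females and 0.09 (interval -0.76 to 0.94, adjusted p = 0.999978) in males. None of these 4 tests passed the threshold, and the intervals show the size of change that these mice leave possible. The restraint response was 1.99 times as large in females as in males (interval 1.17 to 3.38, unadjusted p = 0.0141), but this difference did not pass the adjustment over all genes (adjusted p = 0.9998).

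**Figure D1:**
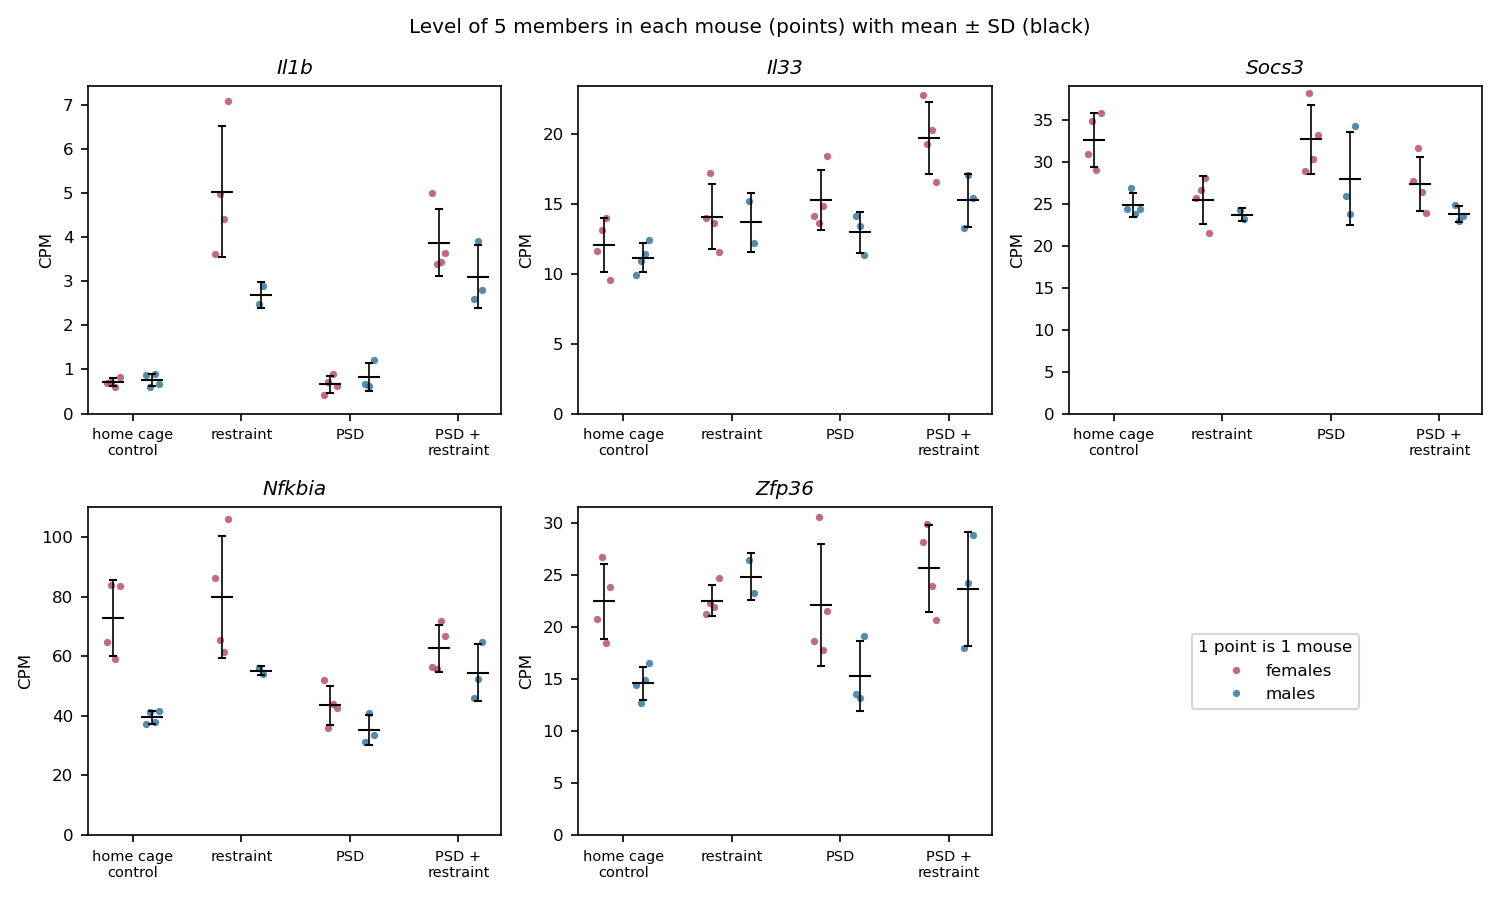
Level of Il1b, Il33, Socs3, Nfkbia and Zfp36 in CPM (y axes, linear, from 0) in each of the 28 mice by treatment (x axes), females in red and males in blue, with black bars for the mean ± SD of each group. Il1b is at or under 1.21 CPM in every mouse that was not restrained and at or over 2.48 CPM in every mouse that was.

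Macrophages are a usual source of interleukin-1 beta, and their marker genes were read beside it. The summed level of 12 macrophage markers (Csf1r, Cx3cr1, Aif1, C1qa and others, all of them detected) was 142 to 151 CPM in control females, 149 to 189 CPM in restraint females, 149 to 203 CPM in PSD females and 168 to 195 CPM in PSD + restraint females. In males the sum was 157 to 178 CPM in controls, 153 to 161 CPM after restraint, 153 to 159 CPM after PSD and 178 to 183 CPM after PSD + restraint. None of the 12 was called after restraint in either sex, and C1qa and Cd68 were called higher in PSD + restraint females. The sums of all PSD + restraint females and males lay above those of every control of their sex, and those of the 2 restraint males lay inside or under the range of their controls. The part of macrophage number in the Il1b values was not tested in either sex. Neutrophil markers summed to 3.77 to 6.14 CPM in restraint females, within or below the 4.59 to 7.37 CPM of control females. In males they summed to 9.51 to 16.1 CPM after restraint, against 12.4 to 23.3 CPM in controls. After PSD + restraint they reached 4.77 to 16.5 CPM in females and 13.6 to 126 CPM in males, where mouse 2 had both the highest neutrophil sum and the highest male Il1b level, 3.91 CPM. The part of neutrophils was not tested either.

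**Figure D2:**
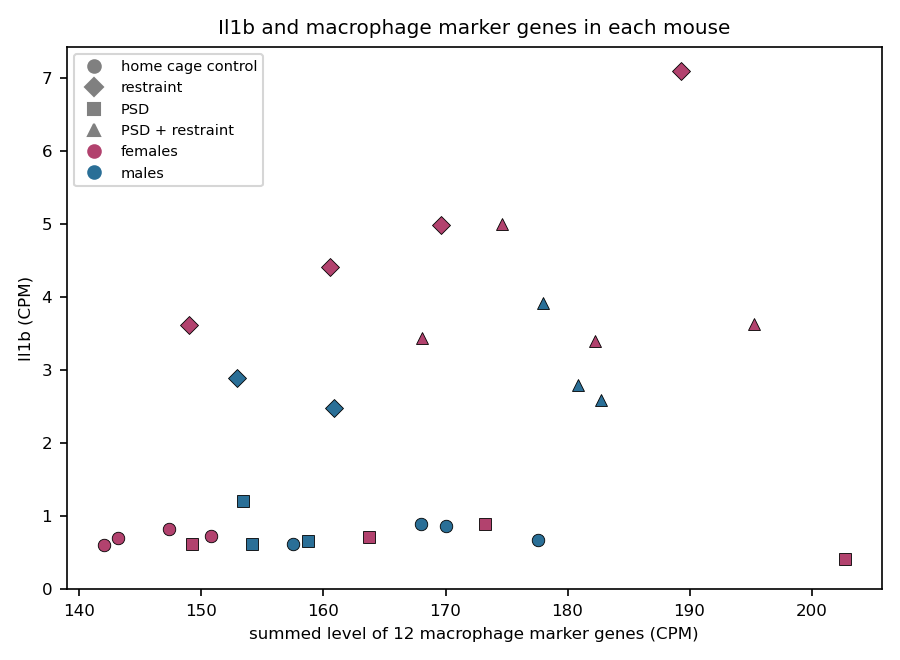
Il1b in CPM (y axis, linear, from 0) against the summed level of 12 macrophage marker genes in CPM (x axis, linear, not from 0), with 1 point per mouse, shapes for treatment and red and blue for females and males. The mice given restraint, alone or after PSD, lie at 2.48 to 7.09 CPM of Il1b and at marker sums of 149 to 195 CPM, and the others at or under 1.21 CPM and at sums of 142 to 203 CPM.

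Il33 encodes an alarmin that is held in nuclei of barrier, stromal and glial cells and released on damage. The gene lies on chromosome 19, 29925114 to 29960718 of the plus strand in GRCm38. It stood higher than in controls where both stressors were combined. In females it was at 11.7, 13.1, 13.99 and 9.58 CPM in controls, 14.02, 17.2, 13.7 and 11.6 CPM after restraint and 14.2, 13.6, 14.9 and 18.4 CPM after PSD. The 4 PSD + restraint females were at 22.8, 19.3, 20.3 and 16.6 CPM, all above every control, and the change was 1.64-fold (interval 1.34 to 2.02; log2 fold change 0.72, standard error 0.14, adjusted p = 0.0125). Without PSD + restraint mouse 1, the highest of the 4, the log2 value was 0.64, with adjusted p = 0.0526. In males Il33 was at 9.93, 10.9, 11.4 and 12.4 CPM in controls and 13.3, 17.1 and 15.4 CPM in PSD + restraint mice. These groups did not overlap either, but the 1.37-fold difference missed the threshold (interval 1.14 to 1.65, adjusted p = 0.0704). DESeq2 called it (adjusted p = 0.0170), and no other alternative did (0.0563 to 0.336). With all mice in 1 model and sex as a term the difference was 1.51-fold and was called (interval 1.32 to 1.74, adjusted p = 0.000161). Neither stressor alone was called in that model, where restraint gave 0.24 on the log2 scale (adjusted p = 0.373) and PSD 0.29 (adjusted p = 0.133), and the interaction was 0.07 (adjusted p = 0.9999). Against PSD alone, PSD + restraint gave 0.36 in females (adjusted p = 0.332) and 0.31 in all mice (adjusted p = 0.0965). Against restraint alone it gave 0.48 in females (adjusted p = 0.212) and 0.36 in all mice (adjusted p = 0.180). None of these differences from a single stressor was called. Beside the Il33 values, the summed neurointermediate lobe markers were 844 to 1264 CPM in PSD + restraint females against 578 to 870 CPM in controls and 718 to 1385 CPM in PSD + restraint males against 159 to 774 CPM in controls. In females the stem and folliculostellate markers were 483 to 551 CPM against 372 to 522 CPM. With the neurointermediate lobe score as a covariate the Il33 change was 0.62 on the log2 scale in females (adjusted p = 0.181) and 0.38 in males (adjusted p = 0.163). The all-mice call was kept under all 37 alternatives, the lobe score among them, with log2 values of 0.51 to 0.65 and a highest adjusted p of 0.00200.

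The other cytokines and chemokines were read too sparsely, or too evenly, for a call. Lif, which acts on corticotrophs through STAT3, was covered by 7 to 44 reads per mouse. It was at 0.741 ± 0.0510 CPM (SD, n = 4) in control females and 0.675 ± 0.142 CPM (SD, n = 4) in restraint females, at 0.771 ± 0.138 CPM (SD, n = 4) in control males and 0.675 ± 0.0538 CPM (SD, n = 3) in PSD + restraint males, and every group overlapped its controls. Its fitted change after restraint was 0.920-fold in females (interval 0.685 to 1.24) and 0.908-fold in males (interval 0.618 to 1.33).

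Ccl2, the main monocyte attractant, had 5 to 39 reads per mouse. Control females were at 0.330, 0.407, 0.199 and 0.285 CPM and PSD + restraint females at 0.596, 0.753, 0.457 and 0.374 CPM. Control males were at 0.233, 0.139, 0.604 and 0.312 CPM and PSD + restraint males at 0.401, 0.398 and 1.86 CPM. The groups overlapped in both sexes, and male PSD + restraint mouse 3 stood far above the rest. In all mice the PSD + restraint change was 2.17-fold (interval 1.25 to 3.78) with an adjusted p of 0.0595, just over the threshold. Without male PSD + restraint mouse 3 the log2 value fell from 1.12 to 0.68 (adjusted p = 0.210). The adjusted p went under the threshold without male control 3 (0.0378), without female restraint mouse 1 (0.0391) and with DESeq2 (0.0377), whose shrunken log2 value of 0.30 was under the fold threshold.

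Tnf, the founding member of its cytokine family, had 146 reads over all 28 mice and 0 to 12 in any 1 mouse, and it passed the filter on low counts only with all mice together. The 2 restraint males lay below all 4 control males, at 0 and 0.0693 against 0.149, 0.167, 0.249 and 0.144 CPM. Its change after restraint was 0.508-fold in all mice (interval 0.242 to 1.07, adjusted p = 0.529). Cxcl1, a neutrophil attractant, had 192 reads, and 3 males held most of its high values: control 1 at 0.488, PSD mouse 3 at 0.718 and PSD + restraint mouse 3 at 0.744 CPM. Its male changes had intervals as wide as 0.101 to 3.66-fold after restraint. Il6 had 13 reads in all, 1 to 4 in each of 7 mice and 0 in the other 21, so it was not tested. The 4 control males had 0 reads and the 2 restraint males 3 and 1. A count of 0 allows up to 3 reads, or 0.0526 to 0.224 CPM depending on the library, and covers counting error only. An Il6 response below that level was not detectable at this depth.

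**Figure D3:**
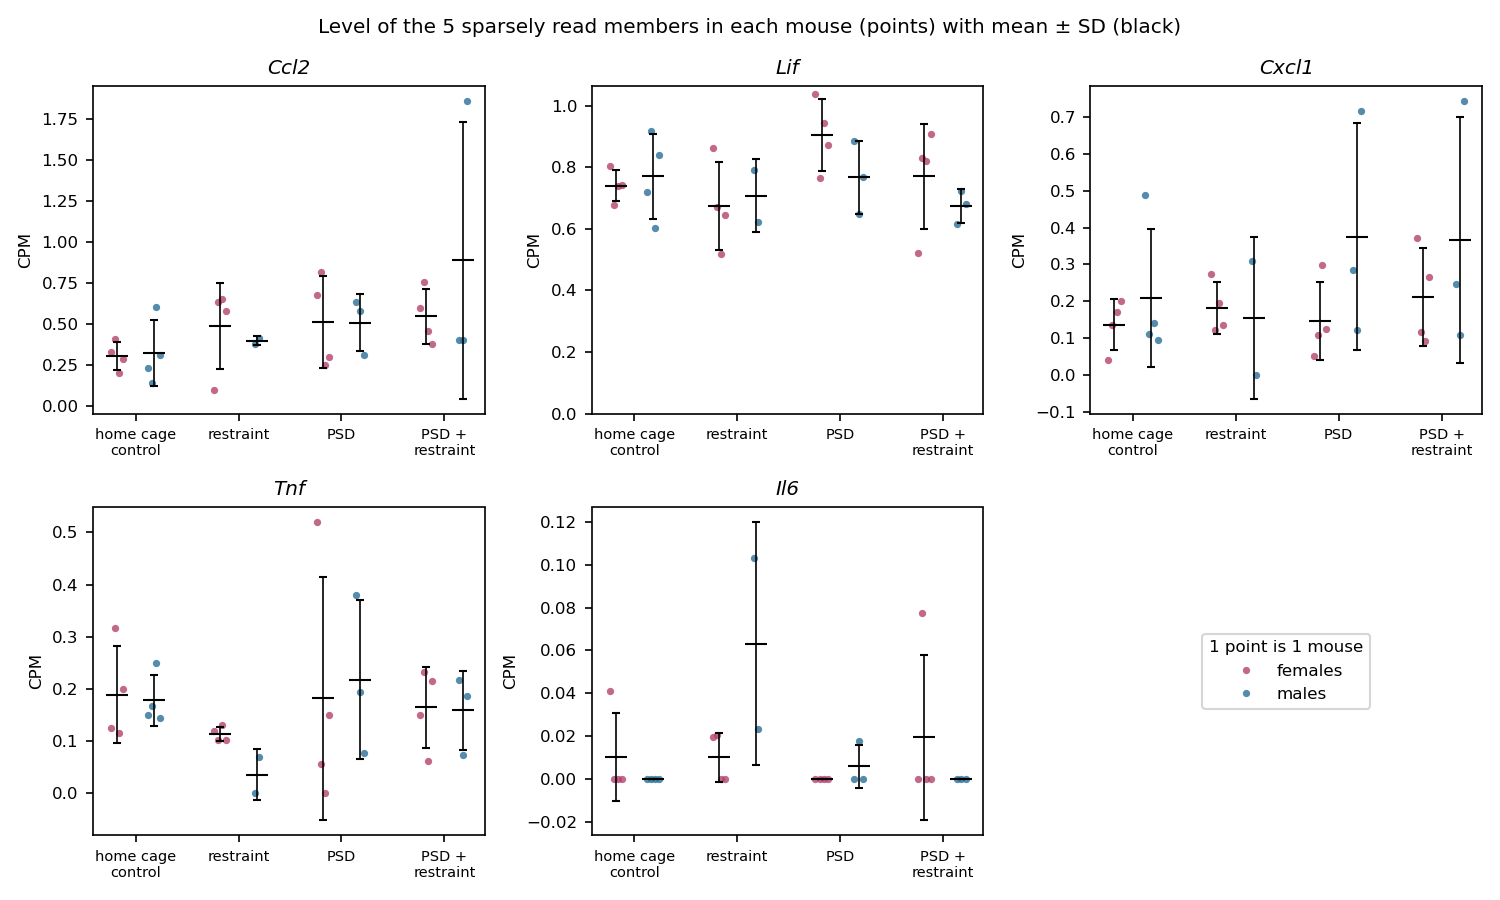
Level of Ccl2, Lif, Cxcl1, Tnf and Il6 in CPM (y axes, linear) in each mouse by treatment (x axes), females in red and males in blue, with black bars for the mean ± SD of each group, some of which reach below 0. The 2 restraint males lie above their controls in Il6 (controls at 0) and below them in Tnf, every other treatment group overlaps its controls, and single mice such as male PSD + restraint mouse 3 in Ccl2 (1.86 CPM) set the wide bars.

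Among the feedback genes, Nfkbia (chromosome 12, 55489410 to 55492647) and Zfp36 (chromosome 7, 28376784 to 28380253; both minus strand, GRCm38) rose in males that received both stressors. Nfkbia was at 37.3, 41.3, 38.1 and 41.6 CPM in control males and at 46.1, 52.4 and 64.9 CPM in PSD + restraint males, without overlap. The change was 1.38-fold (interval 1.162 to 1.63, adjusted p = 0.0469). The 2 restraint males, at 56.2 and 54.2 CPM, also lay above all controls, with a 1.40-fold difference that was not called (adjusted p = 0.283). Zfp36 was at 14.4, 12.6, 14.9 and 16.5 CPM in control males and 17.9, 24.2 and 28.8 CPM in PSD + restraint males. Again no mouse overlapped, and the change was 1.61-fold (interval 1.26 to 2.06, adjusted p = 0.0420). After restraint alone it was at 26.4 and 23.2 CPM, 1.70-fold over controls (adjusted p = 0.178). Both male calls lay close to the threshold. The Nfkbia call was lost without any of control mice 1 to 4, restraint mice 2 and 3, PSD mouse 3 or PSD + restraint mice 2 and 3 (adjusted p = 0.0555 to 0.119), and with counts thinned to the smallest library (0.0823). It was also lost with only the groups compared (0.0643), the replicate block (0.0827) and the neurointermediate lobe score (0.0783). Leaving out the 4 libraries that stood apart lost it too (0.140). The Zfp36 call was lost without any of control mice 1 to 4, restraint mouse 3, PSD mouse 1 or PSD + restraint mice 2 and 3 (adjusted p = 0.0504 to 0.140). The Zfp36 call was also lost with only the groups compared (0.0540), the replicate block (0.0717) and the lobe score (0.0582). Without the 4 libraries that stood apart its adjusted p was 0.157. Beside these values, PSD + restraint mouse 2 had the neutrophil marker sum of 126 CPM. Neurointermediate lobe markers summed to 718 to 1385 CPM in PSD + restraint males, against 159 to 774 CPM in control males. The part of blood cells or of the lobe in the Nfkbia and Zfp36 levels was not tested beyond the fit with the lobe score.

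In females neither gene was called against controls. Nfkbia was at 64.9, 84.1, 59.2 and 83.6 CPM in control females, 86.4, 65.6, 61.6 and 106 CPM after restraint and 56.4, 55.9, 71.9 and 66.8 CPM after PSD + restraint. After PSD alone it was at 52.0, 36.0, 44.0 and 42.6 CPM, with every PSD female below every control. Marker sums moved beside it: fibroblast and pericyte genes were at 332 to 378 CPM in PSD females against 373 to 519 CPM in controls, neurointermediate lobe genes at 706 to 1628 against 578 to 870 CPM, and forebrain genes at 15.1 to 81.6 against 9.52 to 15.4 CPM. Their part in the Nfkbia level was not tested beyond a fit with the neurointermediate lobe score, in which Nfkbia was not called. The Nfkbia difference was 0.601-fold (interval 0.470 to 0.770) and had an adjusted p of 0.108, over the threshold with edgeR. DESeq2 called it, with adjusted p = 0.00455 and a shrunken log2 value of -0.56. In all mice Nfkbia was 0.721-fold after PSD (adjusted p = 0.0704) and was called 1.48-fold higher in PSD + restraint than in PSD (interval 1.23 to 1.79, adjusted p = 0.0131). Zfp36 in females was at 22.4 ± 3.59 CPM (SD, n = 4) in controls, 22.5 ± 1.51 CPM (SD, n = 4) after restraint and 25.6 ± 4.16 CPM (SD, n = 4) after PSD + restraint, with overlapping mice throughout. The female response was lower than the male one by a log2 difference of -0.76 for Zfp36 after restraint (unadjusted p = 0.00663, adjusted p = 0.9998) and of -0.67 for Nfkbia after PSD + restraint (unadjusted p = 0.00588, adjusted p = 0.573). In all mice Zfp36 was called 1.34-fold higher after PSD + restraint (adjusted p = 0.0446). That call was lost without any of 11 single mice, namely control females 1 and 3, control males 1 to 4, PSD female 4, PSD + restraint females 1 and 2, and PSD + restraint males 2 and 3 (adjusted p = 0.0512 to 0.0991). It was also lost with the replicate block (adjusted p = 0.0576), without a filter (0.0530), with thinned counts (0.0752), with the neurointermediate lobe score (0.147) and without the 4 libraries that stood apart (0.0951), and with DESeq2 the shrunken log2 value of 0.32 was just under the fold threshold.

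Socs3, induced by STAT3, was not called after any stressor. In females it was at 30.9, 34.9, 29.0 and 35.7 CPM in controls and 25.6, 26.6, 28.05 and 21.4 CPM after restraint, with every restrained mouse below every control. The fitted log2 fold change was -0.35 (interval -0.57 to -0.12, adjusted p = 0.208). In males the value was -0.06 (interval -0.32 to 0.19), and the PSD + restraint groups had -0.24 in females and -0.06 in males.

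**Figure D4:**
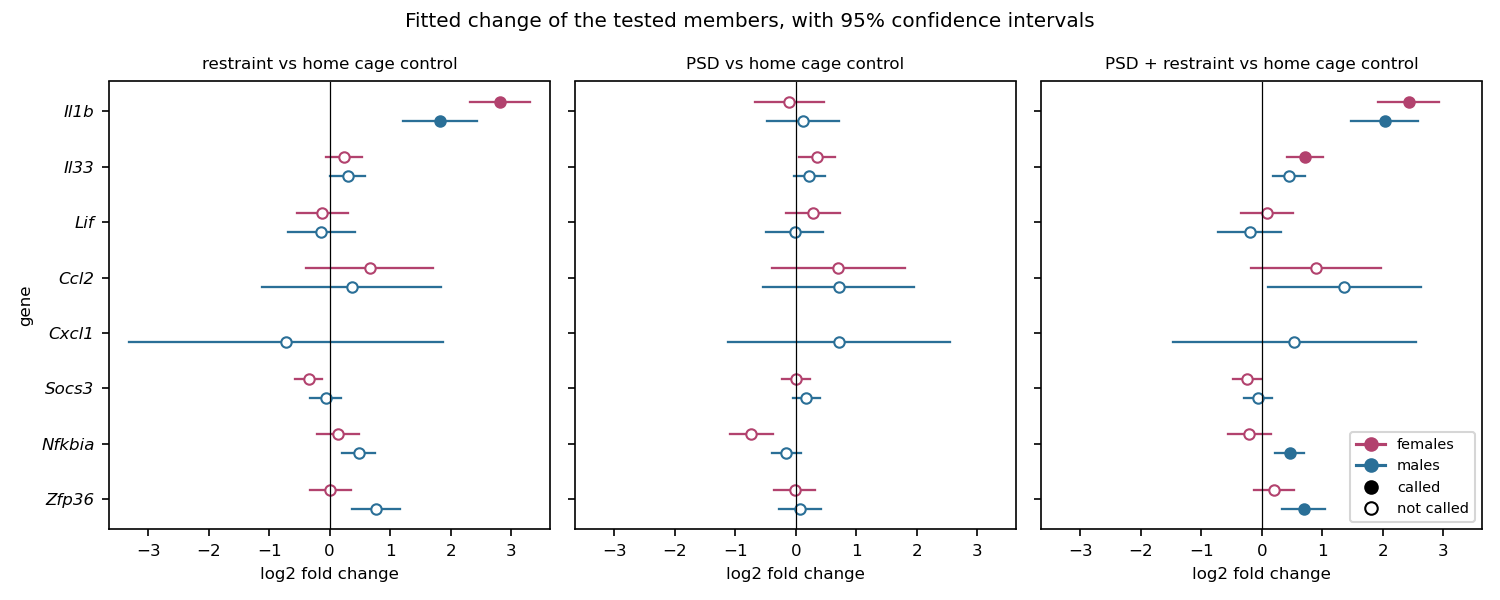
Fitted log2 fold change (x axes) with 95% confidence intervals of the 8 members tested in at least 1 sex (y axis) for 3 comparisons with home cage controls, females in red and males in blue, filled where called. The Il1b intervals lie to the right of 0 wherever restraint was given, between 1.21 and 3.31, and include 0 after PSD alone.

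Control mice of the 2 sexes differed in all 3 feedback genes. Nfkbia was at 72.9 ± 12.8 CPM (SD, n = 4) in control females and 39.6 ± 2.19 CPM (SD, n = 4) in control males, a 1.84-fold difference (interval 1.48 to 2.29, adjusted p = 0.000265). Every control female lay above every control male. Zfp36 differed 1.53-fold (interval 1.21 to 1.94, adjusted p = 0.0121) and Socs3 1.31-fold (interval 1.13 to 1.53, adjusted p = 0.0134), again without overlap. The Zfp36 call was lost without control female 2 (adjusted p = 0.0551) and the Socs3 call without control female 4 (adjusted p = 0.0599). These 3 of 9 members tested stood against 10.7% of all 18936 genes called between control females and males. Il1b (0.938-fold, interval 0.646 to 1.36), Il33 (1.08-fold, interval 0.894 to 1.31) and Lif (0.963-fold, interval 0.731 to 1.27) were not called between control females and males.

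Counted over the members, 7 were tested in females, 8 in males and 9 in all mice, and each call was toward higher levels in the stressed mice. In females 1 of 7 members (Il1b) was called after restraint, against 0.543% of all 18059 genes tested, none after PSD (0.0277%) and 2 (Il1b, Il33) after PSD + restraint (2.2%). Against PSD alone, PSD + restraint females had 1 of 7 called (0.941%), and against restraint alone none (0.0332%). In males 1 of 8 (Il1b) was called after restraint, against 0.296% of 18271 genes, none after PSD (0.00547%) and 3 (Il1b, Nfkbia, Zfp36) after PSD + restraint (2.56%). PSD + restraint males had 1 of 8 called against PSD alone (0.285%) and none against restraint alone (0.00547%). With all mice, 1 of 9 was called after restraint (1.14% of 18936 genes), none after PSD (0.671%), 3 (Il1b, Il33, Zfp36) after PSD + restraint (5.46%), 2 (Il1b, Nfkbia) in PSD + restraint against PSD (2.01%) and none in PSD + restraint against restraint (0.0951%). No member was called for the interaction of PSD with restraint in females, in males or in all mice, nor was any other gene (0% each time). The female and male responses to restraint, PSD and PSD + restraint likewise had no member called and 0% of all genes. At an unadjusted p under 0.05 the 3 interactions had 0 members each, and the 3 tests of the sexes' responses had 2, 1 and 1 of 9. For PSD the unadjusted counts were 2 of 7 in females, 0 of 8 in males and 2 of 9 in all mice, and for PSD + restraint against restraint they were 1, 0 and 1. DESeq2 called 1 member after PSD in females and 1 in all mice, Nfkbia each time, and 0 in the other tests of this paragraph for which edgeR called none. The comparisons share their control mice and are not independent of each other. The members were chosen with earlier results of these data known, so their shares beside those of all genes are descriptive and not a test.

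By mice alone, 2 of 7 members did not overlap between restraint and control females (Il1b, Socs3), against 5.93% of all genes, 2 between PSD + restraint and control females (14.4%) and 2 between PSD + restraint and PSD females (7.87%). In males 3 of 8 did not overlap after restraint (13.2%), 4 after PSD + restraint (15.1%) and 2 between PSD + restraint and PSD (15.6%). Between PSD and control females 1 of 7 did not overlap (Nfkbia), and between control females and control males the 3 feedback genes did not. The share over all genes was not counted for either comparison. The median log2 fold change of the members was 0.14 in restraint females, 0.33 in restraint males, 0.20 in PSD + restraint females and 0.50 in PSD + restraint males. Over all genes tested these medians were 0.0094, -0.0028, 0.0076 and -0.0058.

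The rest of the pathway was read from lists of related genes, also chosen with earlier results of these data known. Among 28 NF-kB subunits, kinases and inhibitors, all of them tested, 3 were called higher after PSD + restraint in females (Nfkbiz, Ier3, Rel) and 2 in males (Nfkbiz, Ier3), with a list median log2 fold change of 0.0065 and 0.034. Over all genes 2.2% were called in this comparison in females and 2.56% in males. Nfkbiz, an atypical inhibitor that binds NF-kB in the nucleus, went from 9.02 ± 1.07 CPM (SD, n = 4) to 18.0 ± 4.52 CPM (SD, n = 4) in females (log2 fold change 0.996, adjusted p = 0.00260) and from 9.81 ± 0.667 CPM (SD, n = 4) to 23.3 ± 5.30 CPM (SD, n = 3) in males (1.25, adjusted p = 0.000325). It was also the only gene of the list called after restraint alone, in males, at 19.4 ± 0.0407 CPM (SD, n = 2) (0.99, adjusted p = 0.00709). In restraint females its log2 fold change was 0.58 (adjusted p = 0.118). Ier3, an immediate early gene that modulates cell survival, rose to 5.46 ± 1.53 CPM (SD, n = 4) from 3.07 ± 0.488 CPM (SD, n = 4) in females (adjusted p = 0.0355) and to 8.54 ± 2.16 CPM (SD, n = 3) from 2.92 ± 0.246 CPM (SD, n = 4) in males (adjusted p = 0.000512). Rel, which encodes the subunit c-Rel, rose in females from 1.52 ± 0.292 CPM (SD, n = 4) to 2.82 ± 0.249 CPM (SD, n = 4) (adjusted p = 0.0186), and in males its log2 fold change was 0.59 (adjusted p = 0.391). The inhibitors Nfkbib and Nfkbie, the A20 gene Tnfaip3 and the subunits Rela and Nfkb1 were not called in these comparisons.

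Among 13 mRNA decay factors, 12 of them tested, Zc3h12c was the only one called, beside 2.2% of all genes in PSD + restraint females, 0.296% in restraint males and 2.56% in PSD + restraint males. It encodes an endonuclease of the regnase family, whose best known member cleaves cytokine mRNAs. In females it went from 19.1 ± 1.62 CPM (SD, n = 4) in controls to 28.4 ± 4.83 CPM (SD, n = 4) after restraint (log2 fold change 0.58, adjusted p = 0.0558) and 35.7 ± 7.41 CPM (SD, n = 4) after PSD + restraint (0.90, adjusted p = 0.00170). In males it was called after restraint (0.66, adjusted p = 0.0251) and after PSD + restraint (0.87, adjusted p = 0.000838). The relatives of Zfp36 in the list, Zfp36l1 and Zfp36l2, were not called.

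Other cytokines and chemokines were called in males alone, which is not a test of a sex difference. Of 26 listed, 19 were tested in males and 2 were called after PSD + restraint, against 0 of 20 in females, beside 2.56% and 2.2% of all genes. Ccl7, another monocyte attractant, was at 0.206 ± 0.0984 CPM (SD, n = 4) in control males and 1.09 ± 0.470 CPM (SD, n = 3) in PSD + restraint males (log2 fold change 2.48, adjusted p = 0.00918), and in females its value was 0.79 (adjusted p = 0.319). The test of that difference gave -1.68 (unadjusted p = 0.0160, adjusted p = 0.623). Clcf1, a ligand of the receptor chain used by Lif, rose from 3.39 ± 0.834 CPM (SD, n = 4) to 5.88 ± 1.32 CPM (SD, n = 3) in males (adjusted p = 0.0437), with a log2 fold change of 0.53 in females (adjusted p = 0.175). None of the 17 receptors and decoys, 14 tested in females and 15 in males, was called after restraint, PSD or PSD + restraint within a sex. Of 18 JAK-STAT mediators and SOCS inhibitors, all tested, 0 were called in females and 2 in PSD + restraint males, beside the same 2.56% of all genes: Cish, an inhibitor of STAT5 signaling, by 0.48 on the log2 scale (adjusted p = 0.00338), and its relative Socs7 by 0.41 (adjusted p = 0.00295). Stat3, the factor between Lif and Socs3, was not among them.

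**Figure D5:**
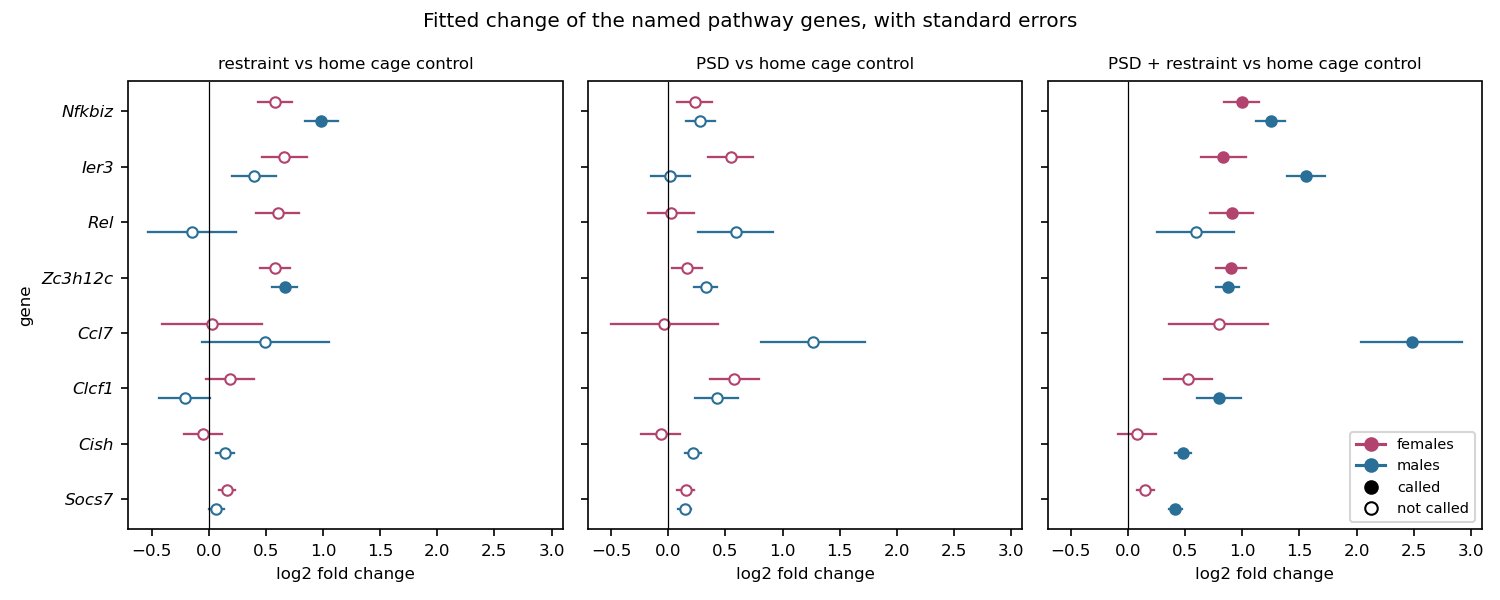
Fitted log2 fold change (x axes) with standard errors of the 8 pathway genes called in at least 1 comparison with home cage controls within a sex (y axis), females in red and males in blue, filled where called. No gene is filled after PSD alone, and Nfkbiz, Ier3 and Zc3h12c are filled in both sexes after PSD + restraint.

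The genes most like each called member were found by the root mean square difference of 6 log2 fold changes, those of the 3 stressors against controls in each sex, over 17858 genes tested in both sexes. Closest to Il1b were TRNA_Ser (0.452), 9630028B13Rik (0.535) and Rgs1 (0.562), a regulator of G protein signaling in leukocytes. The 6 values of Il1b had a root mean square of 1.89. Closest to Il33 were Wdr66_ (0.0586), Scn7a (0.0807) and Ttll13 (0.0811), closest to Nfkbia were Ank1 (0.0984), Mir8094 (0.156) and Agr2 (0.169), and closest to Zfp36 were A630089N07Rik (0.112), AK051586 (0.124) and Cyp27b1 (0.124). The 6 changes of these 3 members had a root mean square of 0.416, 0.423 and 0.431.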

How the data were processed

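Whole pituitary RNA of 28 mice was sequenced as stranded mRNA libraries with paired reads. The values used are read counts per gene, which the authors deposited after alignment with MapSplice to mm10 and counting with HTSeq 0.9.1 over UCSC gene models. The strand setting of the counting is not given in the sources used here. Their normalized table, made with DESeq2 1.16.1, was not used here. Counts were analysed in R 4.3.3 with edgeR 4.0.16: genes were filtered with filterByExpr, scaled by TMM and tested by quasi-likelihood over all genes in females, males and all mice with sex as a term. A call needed an adjusted p of at most 0.05 and levels at least 1.25-fold apart. Confidence intervals are the estimate and its standard error at 95%. Sex differences were contrasts of 8 group means. Interactions were contrasts of the 4 treatment means, within a sex or in all mice with sex as a term. The steps were tested on simulated data.

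The text names all 10 members, every pathway gene called against home cage controls within a sex (up to 8 a list), and the 3 genes most like each called member. The members and lists were chosen with earlier results of these data known. Exon lengths came from the GENCODE annotation and promoters from RefSeq, both on GRCm38. Alternatives were DESeq2 1.42.0, its size factors, no filter, at least 10 counts in every mouse, thinning to 14024465 reads, fits of the compared groups only, a replicate block, robust fitting, a neurointermediate lobe score as a covariate, no fold threshold, each mouse left out and, chosen after seeing the data, the 4 libraries that stood apart in marker sums left out. No replicates were counted as duplicates: over 37 pairs within groups, chi-square divided by its degrees of freedom was never below 6.43.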

Additional observations from a re-analysis of the deposited data

Results flagged for a closer look

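Within the groups of 4 mice, 50 gene and group combinations were screened for a mouse far from the other 3, and 5 were found. Il6 in PSD females and in control males had 0 reads in every mouse and could not be tested. For evenly spread levels, chance gives about 1 in 20. Il1b in PSD + restraint female 1 was at 4.99 CPM, against 3.40 to 3.63 CPM in the other 3 mice of its group, and all 4 remained above every unrestrained female. Ccl2 in restraint female 1 was at 0.0982 CPM, below the 0.577 to 0.649 CPM of the other 3. Cxcl1 in male control 1 was at 0.488 CPM, against 0.0960 to 0.142 CPM in the other 3 controls, and this is also the mouse with the low neurointermediate lobe marker sum. Il6 was at 0.0412 CPM in control female 1 and at 0.0773 CPM in PSD + restraint female 2, with 0 reads in the other mice of those groups, so that these 2 cases rest on 2 and 4 reads. Where the other 3 mice have 0 reads, any read is flagged, so the rate of 1 in 20 does not apply to these 2 cases. What sets these mice apart was not tested.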

How the results depend on the processing

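Over the 48 log2 fold changes of members that were called or had an unadjusted p under 0.05, 1454 values under alternatives held 1381 with the same direction and side of the threshold, 58 that lost the call, 15 that gained it and 0 that reversed. No group mean in CPM of 80 moved by more than 1 SD with library size alone as the scaling. The following numbers of members called differed by more than 1.5 times from the main count. With at least 10 counts in every mouse it was 0 for restraint females, 1 for PSD + restraint females, 0 for PSD + restraint against PSD females, 0 for restraint in all mice and 1 for PSD + restraint against PSD in all mice, since Il1b had 8 reads in 1 female PSD mouse and left the test. With DESeq2 it was 1 for PSD females, 3 for restraint males, 3 for PSD + restraint against PSD males and 1 for PSD in all mice. With the neurointermediate lobe score it was 1 for PSD + restraint females, 1 for PSD + restraint males and 2 for PSD + restraint against PSD males. With only the groups compared it was 3 for restraint males, 1 for PSD + restraint males and 0 for PSD + restraint against PSD males. With no filter it was 2 for PSD + restraint against PSD males. Without the 4 libraries that stood apart, an alternative chosen after seeing the data, it was 1 for PSD + restraint males and 0 for PSD + restraint against PSD males. Smaller shifts were 4 with DESeq2, which added Il33, and 2 with thinned counts, which lost Nfkbia, in place of 3 for PSD + restraint males. For PSD + restraint in all mice the count was 2 in place of 3 with DESeq2, no filter, the 10-count minimum, thinned counts, the lobe score, the replicate block and the 4 libraries left out. Apart from the 10-count minimum, where this follows from the genes left, the cause was not tested.

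With 1 mouse left out at a time, the number called was 1 to 2 for PSD + restraint females, 0 to 1 for restraint males, 1 to 3 for PSD + restraint males, 0 to 2 for PSD + restraint against PSD males, 2 to 4 for PSD + restraint in all mice, 2 to 3 for PSD + restraint against PSD in all mice and 2 to 3 for control females against males. Replicate numbers are shared across groups but mark different animals: the deviations of same-numbered mice correlated at a mean of -0.016 over 24 female pairs and -0.061 over 15 male pairs, and 4 of 16 females and 0 of 12 males correlated best with their own number. With the replicate block the number called was 0 for restraint males, 1 for PSD + restraint males, 0 for PSD + restraint against PSD males and 2 for PSD + restraint in all mice, where Zfp36 was lost (adjusted p = 0.0576). Depth limits Il6, Tnf and Cxcl1 most: at 13, 146 and 192 reads over all mice, changes in them were hardly measurable.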
